A study of Mus musculus with 8 samples.

Results

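Alternative activation is the state that macrophages take up under interleukin-4 (IL-4) or interleukin-13, and 10 genes used to recognise it were followed in mouse bone marrow derived macrophages labelled Baf60a KO or WT. The genes were 2 galactose-type lectins (Clec10a and Mgl2), the mannose receptor Mrc1, the enzymes Arg1 and Tgm2, the secreted proteins Retnla, Chil3 and Ccl24, the folate receptor Folr2 and the transcription factor Irf4. They were chosen by name, with earlier results of these data known. Each matched 1 Ensembl identifier among the 55421 in the table through the GENCODE M21 annotation. Each label has 4 libraries, all from primary macrophages at day 7 of differentiation and, per the series title, from C57 mice. Baf60a is the protein encoded by Smarcd1, a subunit of SWI/SNF chromatin remodelling complexes. No IL-4 treatment is named in the labels, and the sources used here do not give the way of deletion, the age and sex of the mice or the growth factors. Whether libraries with the same label stem from different mice is not stated. A p-value therefore reads the spread among these libraries alone, which may be technical.

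In the textbook account, IL-4 and interleukin-13 bind receptors that share the chain Il4ra, Janus kinases phosphorylate STAT6, and STAT6 enters the nucleus and switches on genes such as Arg1, Retnla, Chil3 and Mrc1. Irf4 acts with STAT6 in this programme, and Clec10a and Mgl2 (also called CD301a and CD301b) are lectins of macrophages and dendritic cells that bind galactose and N-acetylgalactosamine. Folr2 and Mrc1 are also read as markers of tissue-resident macrophages.

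Of the 10 genes, Clec10a fell in Baf60a KO, to 0.491 of its WT level in mean TPM, and the other 4 that were abundant enough to test did not pass. The other 5, Mgl2, Arg1, Retnla, Ccl24 and Irf4, lay below 1 TPM on average. Values are TPM (a share of all transcripts that takes their length into account), so levels can be compared between genes, but read depth is unknown and no counting interval can be given. Genes over 1 TPM in at least 4 libraries were tested, 13933 in all, by limma on log2(TPM + 1), where fold changes of low genes come out too small. A gene was called at an adjusted p under 0.05 (Benjamini-Hochberg over all genes tested), and called genes are said to have risen or fallen. By this rule 5.61% of all genes tested were called, 4.40% higher and 1.21% lower in Baf60a KO, against 1 lower and 0 higher of the 5 tested members. The split of 613 higher and 169 lower genes moved with the scaling, to 516 and 404 under median-of-ratios scaling, 440 and 254 under quantile normalization, and 594 and 321 with TPM recomputed over protein-coding genes.

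The labels were checked on Smarcd1, which was at 10.79, 10.27, 10.85 and 9.91 TPM in the Baf60a KO libraries, against 16.25, 14.29, 14.76 and 14.01 TPM in the WT libraries (log2 fold change -0.47, limma adjusted p = 0.00756). The ratio of means was 0.705, so most of the transcript was still listed in the libraries labelled Baf60a KO. Of the 7 macrophage markers, all tested, Cd68 and Itgam rose and Lyz2 fell. Their summed level was 4112 to 4448 TPM in Baf60a KO and 5618 to 6513 TPM in WT, and Lyz2 carried that order (log2 fold change -1.05). All 6 other macrophage markers had a higher mean in Baf60a KO, and without Lyz2 the sum was 2303 to 2401 TPM in Baf60a KO and 1796 to 2204 TPM in WT. Of the 7 stromal markers tested, 4 (Col1a1, Col3a1, Pdgfrb and Acta2) rose, and the list of 8 summed to 5611 to 5928 TPM in Baf60a KO and 4469 to 4952 TPM in WT. Over all genes tested, 4.40% were called higher and 1.21% lower in Baf60a KO. Among the dendritic cell markers, 7 of 9 (Flt3, Ccr7, Xcr1, Clec9a, Cd209a, Dpp4 and Ciita) stayed below 1 TPM in every library. The dendritic list summed to 4.1 to 5.0 TPM in Baf60a KO and 3.01 to 4.0 TPM in WT. Neutrophil markers summed to 150 to 241 TPM in Baf60a KO and 199 to 293 TPM in WT, and lymphocyte markers to 0.07 to 0.29 TPM in Baf60a KO and 0.10 to 0.34 TPM in WT. Eosinophil, basophil and mast cell markers summed to 2.24 to 2.98 TPM in Baf60a KO and 2.0 to 3.04 TPM in WT, and monocyte markers to 5.73 to 7.60 TPM in Baf60a KO and 5.34 to 7.88 TPM in WT. In bulk samples fewer cells of a type and less RNA per cell cannot be told apart, and the part of the stromal and macrophage marker changes in the results that follow was not tested.

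The sequences that bear on the lectin result are those of Clec10a and its neighbour Mgl2, because a read from a stretch that both hold cannot be told apart by its letters. Over the aligned coding bases of the transcripts Clec10a-202 and Mgl2-205, 836 of 912 bases (91.7%) were identical, and the longest run without a difference was 183 bases. That run is shown with 30 bases on either side, from GENCODE M21 transcripts (build mm10, plus strand), with the bases that differ in capitals. The Clec10a stretch is at chr11:70169792-70170219 and the Mgl2 stretch at chr11:70136307-70136729, each with an intron left out.
Clec10a-202: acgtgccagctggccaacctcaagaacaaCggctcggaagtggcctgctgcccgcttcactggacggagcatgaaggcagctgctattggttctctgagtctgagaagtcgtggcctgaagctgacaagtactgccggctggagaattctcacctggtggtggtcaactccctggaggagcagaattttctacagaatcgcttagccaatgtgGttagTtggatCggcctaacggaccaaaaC
Mgl2-205: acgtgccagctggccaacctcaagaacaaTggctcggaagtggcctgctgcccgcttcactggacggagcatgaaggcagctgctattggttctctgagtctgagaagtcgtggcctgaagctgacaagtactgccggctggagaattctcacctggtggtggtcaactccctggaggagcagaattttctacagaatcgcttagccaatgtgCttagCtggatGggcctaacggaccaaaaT
In all, 263 of the 3187 windows of 51 bases (the read length per the labels) in annotated Clec10a transcripts (8.25%) also occurred in Mgl2, which was listed at 0.11 to 0.18 TPM in Baf60a KO and 0.05 to 0.25 TPM in WT. Counting every other annotated gene, 279 of the Clec10a windows (8.75%) were shared.

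Clec10a (chr11:70156197-70170834, plus strand, build mm10 as for all genes here) was at 4.63, 4.21, 3.95 and 5.39 TPM in the 4 Baf60a KO libraries, against 10.76, 9.64, 8.14 and 8.52 TPM in the 4 WT libraries. Every Baf60a KO library was below every WT library. Means were 4.54 ± 0.629 TPM in Baf60a KO and 9.27 ± 1.18 TPM in WT (SD, n = 4 each), with a log2 fold change of -0.89 (SE 0.107, limma adjusted p = 0.00503). Groups that did not overlap were found for 15.8% of all genes tested. The call held in all 19 alternatives, with a log2 fold change between -1.02 and -0.82 and an adjusted p between 0.00276 and 0.0328.

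Mgl2 (chr11:70130329-70137550), the other galactose-type lectin, was at 0.11, 0.17, 0.18 and 0.17 TPM in Baf60a KO and at 0.15, 0.11, 0.25 and 0.05 TPM in WT. The groups overlapped and the level was too low for the test across genes. An exact two-sided permutation test of mean TPM gave p = 0.743 (adjusted p = 0.83 over the 5 untested genes). Within a library, Clec10a exceeded Mgl2 by 2.25 ± 0.173 on the log2(TPM + 1) scale in Baf60a KO and by 3.17 ± 0.210 in WT (SD, n = 4 each). The difference of -0.91 had the smallest p that an exact permutation test of 4 against 4 allows (p = 0.0286, two-sided). On this scale a gene as low as Mgl2 can move little in either direction, so the difference restates the fall of Clec10a (log2 fold change -0.89). It cannot show whether Clec10a and Mgl2 changed by different amounts.

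**Figure D1:**
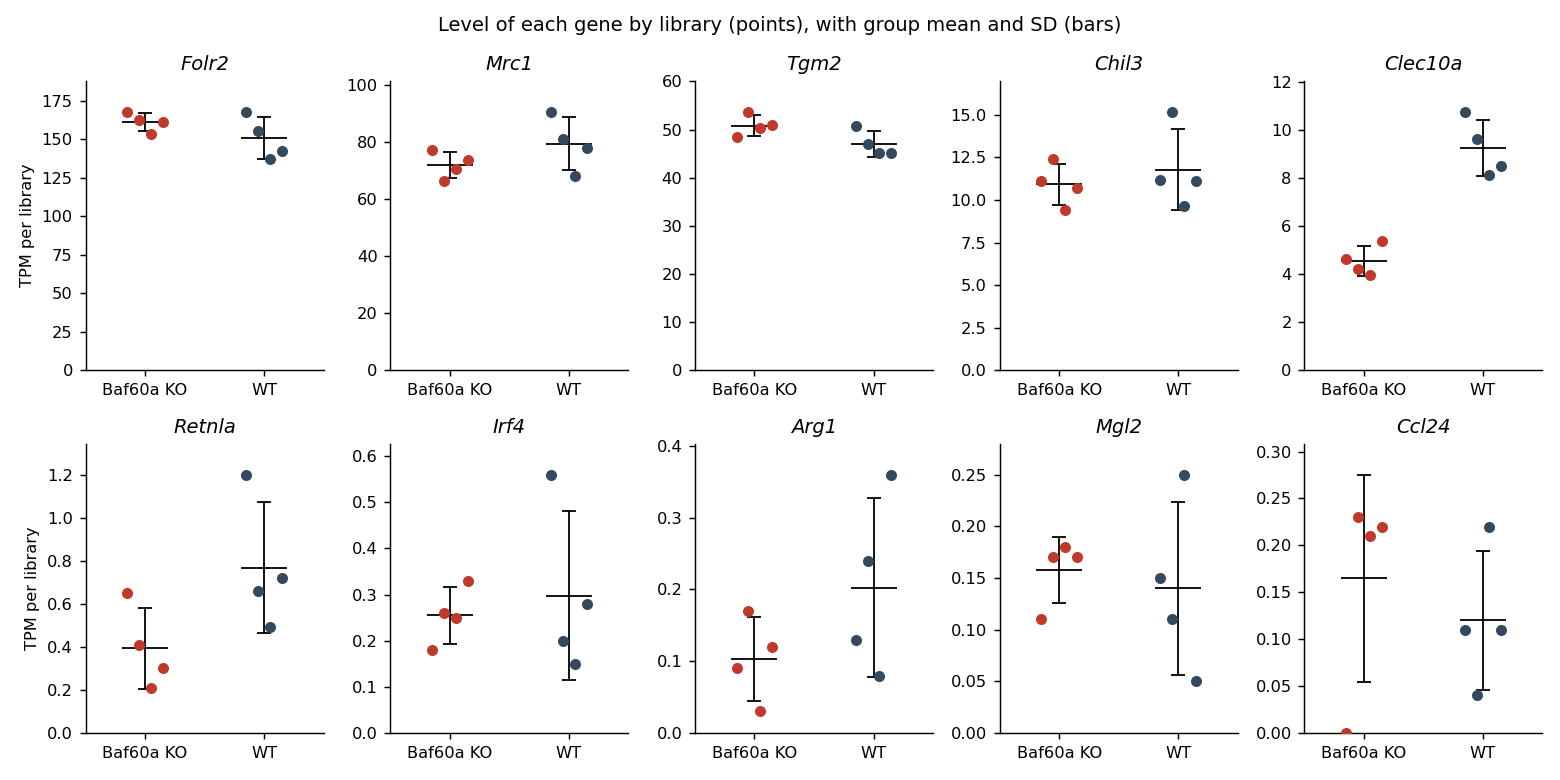
Level of the 10 genes in TPM by library, each panel on its own linear axis from 0, with Baf60a KO left of WT; points are libraries and bars the group mean and SD (n = 4 each). Clec10a is the 1 gene called by limma, with Baf60a KO libraries from 3.95 to 5.39 TPM and WT libraries from 8.14 to 10.76 TPM, and the lower row holds the genes below 1 TPM on average.

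Asgr1 and Asgr2, which encode the asialoglycoprotein receptor of liver cells and belong to the same lectin family, start at -102.11 and -63.553 kb from the Clec10a start and were hardly detected. Asgr1 averaged 0.0575 TPM in Baf60a KO and 0.142 TPM in WT. Asgr2 averaged 0.110 TPM in Baf60a KO and 0.138 TPM in WT. Around Clec10a, 15 other genes within 250 kb were tested and 0 were called by limma, with a median log2 fold change of 0.03, the same as the 0.03 of all genes tested. An unadjusted p under 0.05 was reached by 1 of these 15. Over all 10 genes, 58 tested neighbours within 250 kb, leaving out the 10 themselves (Clec10a is 1 of the neighbours of Mgl2), held 3 rises and 0 falls. Over all genes tested, 4.40% were called higher and 1.21% lower in Baf60a KO. The 3 rises were Hip1, a clathrin adaptor near Ccl24 (log2 fold change 0.36, limma adjusted p = 0.0159), Kctd11 (0.38, adjusted p = 0.0345) and Inppl1, a lipid phosphatase next to Folr2 (0.25, adjusted p = 0.0463). Kctd11 starts at -248.92 kb from the Mgl2 start.

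**Figure D2:**
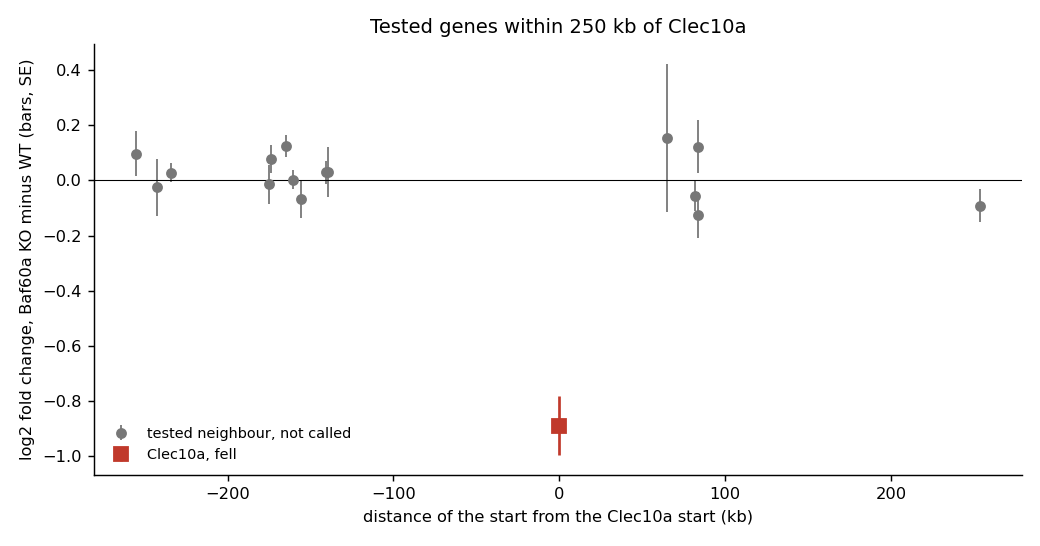
Log2 fold change (Baf60a KO minus WT, limma, bars SE) of Clec10a and the 15 other tested genes within 250 kb, against the distance of each start from the Clec10a start in kb. Clec10a lies at -0.89 and its neighbours between -0.12 and 0.15.

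Mrc1 (chr2:14229392-14332057), the mannose receptor CD206, was at 76.98, 66.24, 70.40 and 73.49 TPM in Baf60a KO and at 90.40, 80.98, 67.89 and 77.91 TPM in WT. The groups overlapped through WT replicate 3, and the log2 fold change of -0.14 (SE 0.0852) did not pass the test (limma adjusted p = 0.394). It was negative in all 19 alternatives and was called in 0 of them, with an adjusted p of 0.0925 or more. Mrc2, its relative on stromal cells, was at 44.6 ± 1.89 TPM in Baf60a KO and 44.6 ± 2.63 TPM in WT. Of 13 listed relatives of the lectins and of Mrc1, 3 were tested and 0 called, and the Cd209 genes of the list stayed at or under 0.150 TPM.

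Folr2 (chr7:101839988-101857194), a folate receptor of resident macrophages, was the most abundant of the 10. It was at 167.86, 162.57, 153.47 and 161.26 TPM in Baf60a KO and at 167.70, 155.38, 137.46 and 142.80 TPM in WT. WT replicate 1 reached the level of the highest Baf60a KO library, and the log2 fold change of 0.10 (SE 0.0642) did not pass (limma adjusted p = 0.411). Without WT replicates 3 and 4 it was -0.0019 (adjusted p = 0.986). Gm10602, an antisense gene that overlaps Folr2 and shares 52.4% of its 51-base windows when both strands are read, was listed at 0.54 to 0.91 TPM in Baf60a KO and 0.35 to 0.93 TPM in WT. Whether the counting used strand is not stated, so reads from the shared stretch cannot be told apart.

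Ratios of TPM within a library do not move with the scaling of that library. The 10 pairs among the 5 tested genes were compared within libraries after the values had been seen. The tests took differences of log2(TPM + 1), where the added 1 lets the scaling enter, most for low genes. Folr2 over Mrc1 was 2.18, 2.45, 2.18 and 2.19 in Baf60a KO, against 1.85, 1.92, 2.02 and 1.83 in WT. The groups did not overlap, although neither gene passed by itself, and the difference on the log2(TPM + 1) scale was 0.24 (exact permutation p = 0.0286, adjusted p = 0.0571 over the 10 pairs). The 10 pairs include the 4 with Clec10a, each at the smallest exact permutation p of 0.0286. Their presence lowers the adjusted p of Folr2 over Mrc1 and of Mrc1 over Tgm2, so neither can be read as near a pass. The 4 ratios to Clec10a restate its fall and are given as a description: Folr2 over Clec10a averaged 35.9 ± 4.16 in Baf60a KO and 16.3 ± 0.604 in WT (SD, n = 4 each), and Chil3 over Clec10a 2.43 ± 0.391 in Baf60a KO and 1.28 ± 0.226 in WT. Mrc1 over Tgm2 was 1.42 ± 0.145 in Baf60a KO and 1.68 ± 0.124 in WT, with overlapping groups (exact permutation p = 0.0571, adjusted p = 0.0952).

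**Figure D3:**
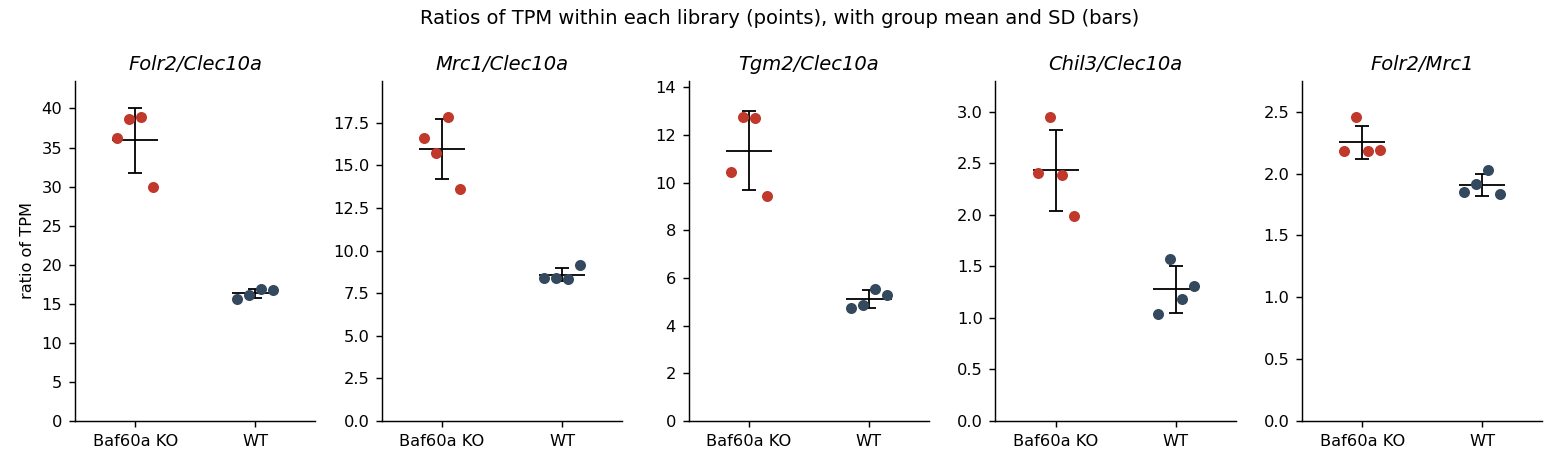
Ratio of TPM within each library for 5 pairs of genes, each panel on a linear axis from 0, with Baf60a KO left of WT; points are libraries and bars the group mean and SD (n = 4 each). The 5 panels show only the pairs whose groups do not overlap. The other pairs compared, such as Mrc1 over Tgm2, have overlapping groups and are left out. The panels with Clec10a restate its fall. Folr2 over Mrc1 lies between 2.18 and 2.45 in Baf60a KO and between 1.83 and 2.02 in WT.

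Tgm2 (chr2:158116402-158146436), a transglutaminase that cross-links proteins and marks alternative activation in mouse and human cells, was at 48.48, 53.64, 50.26 and 50.87 TPM in Baf60a KO and at 50.79, 47.05, 45.22 and 45.08 TPM in WT. WT replicate 1 was the 1 WT library within the range of Baf60a KO. The log2 fold change of 0.11 (SE 0.0523) did not pass (limma adjusted p = 0.257). Tgm2 shares 858 of its 4601 windows of 51 bases (18.6%) with other genes when both strands are read. Of these, 324 occur in Rprd1b, at 7.72 to 9.49 TPM in Baf60a KO and 6.9 to 9.15 TPM in WT, and 534 in Gm20412, listed at 0. Of 7 other transglutaminases, F13a1, the factor XIII subunit of macrophages, was tested, at 1.35 ± 0.144 TPM in Baf60a KO and 1.10 ± 0.187 TPM in WT (adjusted p = 0.379).

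Chil3 (chr3:106147554-106167564), the chitinase-like protein Ym1, was at 11.12, 12.39, 9.43 and 10.73 TPM in Baf60a KO and at 11.18, 15.17, 9.66 and 11.11 TPM in WT. The groups overlapped throughout, with -0.09 as log2 fold change (SE 0.129) and 0.757 as the adjusted p of limma. Chil3 shares 267 of its 1629 windows of 51 bases (16.4%) with its neighbour Chil4, and the coding bases of the pair are 95.4% identical. Their longest shared run, 136 bases, is shown with 30 bases on either side in the same way, at chr3:106148604-106148880 for Chil3 and chr3:106202544-106202820 for Chil4 (minus strand).
Chil3-201: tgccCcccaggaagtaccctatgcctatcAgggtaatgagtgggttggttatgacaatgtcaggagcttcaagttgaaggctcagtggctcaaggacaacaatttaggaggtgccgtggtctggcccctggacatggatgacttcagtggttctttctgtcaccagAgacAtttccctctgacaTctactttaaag
Chil4-201: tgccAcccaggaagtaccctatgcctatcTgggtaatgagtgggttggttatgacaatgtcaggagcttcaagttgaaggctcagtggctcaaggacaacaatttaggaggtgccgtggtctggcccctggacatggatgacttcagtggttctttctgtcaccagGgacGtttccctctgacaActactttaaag
Chil4 was listed at 0 in 7 libraries and at 0.03 TPM in Baf60a KO replicate 1. Of 7 listed relatives of Chil3 and Retnla, Chil1 was the 1 tested, at 0.862 ± 0.341 TPM in Baf60a KO and 1.23 ± 0.196 TPM in WT (limma adjusted p = 0.318).

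Retnla (chr16:48842551-48844461), which encodes the secreted protein Fizz1 and is among the genes most strongly induced by IL-4, was at 0.65, 0.41, 0.21 and 0.30 TPM in Baf60a KO and at 1.2, 0.66, 0.49 and 0.72 TPM in WT. It exceeded 1 TPM in WT replicate 1 alone. The groups overlapped and the difference of -0.38 TPM gave p = 0.0571 in the exact permutation test (adjusted p = 0.286 over the 5 untested genes). Its promoter is shown because the letters TTC and GAA with 4 bases between them, the form bound by STAT6, occur there: of the 6 of the 10 genes with an entry among the RefSeq promoters (build GRCm38.p6), Retnla was the 1 with a match in the 250 bases before the RefSeq start. The motif reads the same on both strands, was the 1 motif searched, and occurred in 5.85% of all 32851 such windows, so that a match is a description and not a site. For Retnla that start, 48842609, lies 58 bases after the GENCODE start given with its values. The first 192 bases of the window, up to the GENCODE start, are shown (chr16:48842359-48842550, plus strand), with the motif in capitals, beginning at position -145 from the RefSeq start.
Retnla promoter: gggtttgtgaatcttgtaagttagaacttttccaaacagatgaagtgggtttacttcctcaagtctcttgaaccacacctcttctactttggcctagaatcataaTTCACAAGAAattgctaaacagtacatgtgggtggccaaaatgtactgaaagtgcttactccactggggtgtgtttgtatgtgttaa
Mrc1, Chil3, Folr2, Mgl2 and Irf4 had no such letters in the window, which says nothing of the factor. Clec10a, Arg1, Ccl24 and Tgm2 were not examined.

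Arg1 (chr10:24915221-24927484), the arginase that turns arginine into ornithine and urea, was at 0.09, 0.17, 0.03 and 0.12 TPM in Baf60a KO and at 0.13, 0.24, 0.08 and 0.36 TPM in WT (exact permutation p = 0.229, adjusted p = 0.571). Irf4 (chr13:30749226-30766976) was at 0.18, 0.26, 0.25 and 0.33 TPM in Baf60a KO and at 0.56, 0.20, 0.15 and 0.28 TPM in WT (exact permutation p = 0.83, unchanged by adjustment). Ccl24 (chr5:135569937-135573049), the chemokine eotaxin-2, was at 0.00, 0.23, 0.21 and 0.22 TPM in Baf60a KO and at 0.11, 0.04, 0.22 and 0.11 TPM in WT (exact permutation p = 0.571, adjusted p = 0.83). In all of these the groups overlapped. No fold is given at these levels.

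Ordered by their mean over the 8 libraries, the levels ran from Folr2 (137 to 168 TPM) over Mrc1 (66.2 to 90.4), Tgm2 (45.1 to 53.6), Chil3 (9.43 to 15.2) and Clec10a (3.95 to 10.8) to Retnla (0.21 to 1.2) and the 4 lowest. The ranges of Folr2, Mrc1 and Tgm2 were apart from each other. Chil3 and Clec10a overlapped in WT, where Chil3 was 1.04 to 1.57 times Clec10a, and not in Baf60a KO, where it was 1.99 to 2.94 times. Retnla, Irf4, Arg1, Mgl2 and Ccl24 overlapped each with the next. Among WT libraries, replicate 1 was the highest for 6 of the 10 genes (Folr2, Mrc1, Tgm2, Clec10a, Retnla and Irf4) and replicate 3 the lowest for 7 of them. WT replicates 3 and 4 also held more TPM on processed pseudogenes (12% and 12.2%) than the other 6 libraries (6.78% to 8.38%), and the part of this in the levels was not tested.

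Genes of the pathway around the 10 were read from 10 lists with 116 genes, of which 71 were tested. Of these, 8 rose, 5 fell and 58 did not pass (18.3% called, against 5.61% of all genes tested). Their median log2 fold change was 0.01 (0.03 over all genes). The lists were chosen with earlier results of these data known, so the higher share called is a description and not a test. Without 1 library the count called came to 3 (without Baf60a KO replicate 3 or 4) to 11 (without WT replicate 1), which can include genes not among the 13. Of the 13 themselves, 3 to 9 stayed called. The count of 613 genes called higher over the whole table came to 120 to 532. The log2 fold changes of the 13 stayed between 0.775 and 1.2 times their value with all libraries in these fits. Calls lost in such fits are given beside each gene, and whether they rest on 1 library was not tested. Without WT replicates 3 and 4 together, 5 of the 13 stayed called. In the list of receptors and STAT6 signalling, 3 of 14 tested genes rose and 0 fell. Ptpn6, the phosphatase SHP-1 that restrains cytokine receptor signals, was at 54.77, 51.57, 57.64 and 53.74 TPM in Baf60a KO, against 38.11, 38.40, 34.98 and 35.36 TPM in WT (log2 fold change 0.56, SE 0.0514, limma adjusted p = 0.00159). No KO library came near the WT range (groups did not overlap for 15.8% of all genes tested), and the call held in all 19 alternatives. Il13ra1, the second chain of the receptor that also binds interleukin-13, averaged 8.93 ± 0.733 TPM in Baf60a KO and 6.75 ± 0.457 TPM in WT (log2 fold change 0.36, adjusted p = 0.0320). It was not called in 7 of the 8 fits without 1 library, all but WT replicate 4, with adjusted p up to 0.0878. Il4ra also rose, by a log2 fold change of 0.18 (adjusted p = 0.0356), and was called in 0 of the 8 such fits (up to 0.107) and under 0 of the 3 other scalings. Stat6 itself was at 59.3 ± 0.699 TPM in Baf60a KO and 55.2 ± 3.65 TPM in WT and did not pass (adjusted p = 0.272). Stat6, Pparg and the untested genes of the next paragraphs are named for their role, after their values were seen.

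Of 16 transcription factors of the programme, all tested, 2 rose and 0 fell, where 4.40% of all genes tested rose and 1.21% fell. Cebpa, a myeloid factor, averaged 66.8 ± 2.96 TPM in Baf60a KO and 53.5 ± 5.69 TPM in WT (log2 fold change 0.32, limma adjusted p = 0.0452). It was called in 1 of the 8 fits without 1 library, that without WT replicate 1 (adjusted p up to 0.127). Without WT replicates 3 and 4 together its log2 fold change was 0.21 (limma adjusted p = 0.0813). Pparg, the nuclear receptor that works with STAT6, was at 34.1 ± 1.80 TPM in Baf60a KO and 34.8 ± 0.880 TPM in WT. Among 8 other interferon regulatory factors 7 were tested and 0 called, with Irf7 the most abundant, at 119 ± 27.2 TPM in Baf60a KO and 116 ± 12.8 TPM in WT.

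Of 13 other IL-4 induced genes tested, 1 rose and 1 fell, where 4.40% of all genes tested rose and 1.21% fell. Itgax, the integrin CD11c, was at 22.39, 22.82, 20.65 and 21.96 TPM in Baf60a KO and at 18.95, 15.61, 11.97 and 15.49 TPM in WT (log2 fold change 0.49, limma adjusted p = 0.0446). This call was lost in 6 of the 8 fits without 1 library, all but those without WT replicates 1 and 3 (adjusted p up to 0.116). Without WT replicates 3 and 4 together the log2 fold change of Itgax was 0.33 (limma adjusted p = 0.0734). Cd200r1, an inhibitory receptor, fell to 75.2 ± 3.27 TPM in Baf60a KO, against 101 ± 10.4 TPM in WT (-0.42, adjusted p = 0.0207), a call lost without Baf60a KO replicates 2, 3 and 4 in turn (adjusted p up to 0.0734). Ccl17, Ccl22, Alox15, Cdh1, Pdcd1lg2 and Cd163, all responders to IL-4 or markers of the state, were below 1 TPM in group mean in both groups. They are among 11 genes of this list, of 24 with an identifier, that were too low to test. The other 13 had means over the 8 libraries of 1.23 to 906 TPM.

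Arginine and polyamine genes gave 1 rise and 2 falls among 9 tested, where 4.40% of all genes tested rose and 1.21% fell. Odc1, which makes putrescine from ornithine, was at 211.38, 217.52, 201.00 and 204.59 TPM in Baf60a KO, against 262.80, 277.31, 235.05 and 264.10 TPM in WT (log2 fold change -0.31, limma adjusted p = 0.0208). Ass1, which remakes the precursor of arginine from citrulline, was at 52.63, 50.78, 50.20 and 49.06 TPM in Baf60a KO, against 64.75, 68.72, 60.19 and 59.08 TPM in WT (-0.31, adjusted p = 0.0210). For both, every KO library was below every WT library, and groups did not overlap for 15.8% of all genes tested. Oat, which takes ornithine towards proline and glutamate, rose to 90.0 ± 2.03 TPM in Baf60a KO, against 80.1 ± 1.89 TPM in WT (0.17, adjusted p = 0.0367). Odc1 lost its call without Baf60a KO replicates 1, 3 and 4 and WT replicate 4 (adjusted p up to 0.0743), Ass1 without Baf60a KO replicates 2, 3 and 4 (up to 0.0754), and Oat in every such fit but that without WT replicate 2 (up to 0.104). Oat was also not called under median-of-ratios scaling (adjusted p = 0.0728) or with TPM over protein-coding genes (adjusted p = 0.0702). Nos2 and Arg2 were at or under 0.300 TPM in every library.

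Of the chemokines that share the receptor Ccr3 with Ccl24, 3 were tested and 2 fell, where 4.40% of all genes tested rose and 1.21% fell. Ccl8 was at 33.73, 35.01, 27.70 and 27.11 TPM in Baf60a KO and at 49.54, 39.97, 41.52 and 39.97 TPM in WT (log2 fold change -0.46, limma adjusted p = 0.0394), and was called in 0 of the 8 fits without 1 library (adjusted p up to 0.11). Ccl7 fell to 26.8 ± 0.803 TPM in Baf60a KO, against 38.0 ± 3.06 TPM in WT (-0.49, adjusted p = 0.00567), and kept its call in all 19 alternatives. In the list of folate carriers and genes of Lyve1-bearing resident macrophages, Gas6, a bridging ligand for dying cells, rose to 143 ± 9.95 TPM in Baf60a KO, against 108 ± 5.88 TPM in WT (0.41, adjusted p = 0.0105, and 0.0504 without WT replicates 3 and 4). Of the others, 4 did not pass, and Lyve1 and Timd4 were at or under 0.450 TPM.

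**Figure D4:**
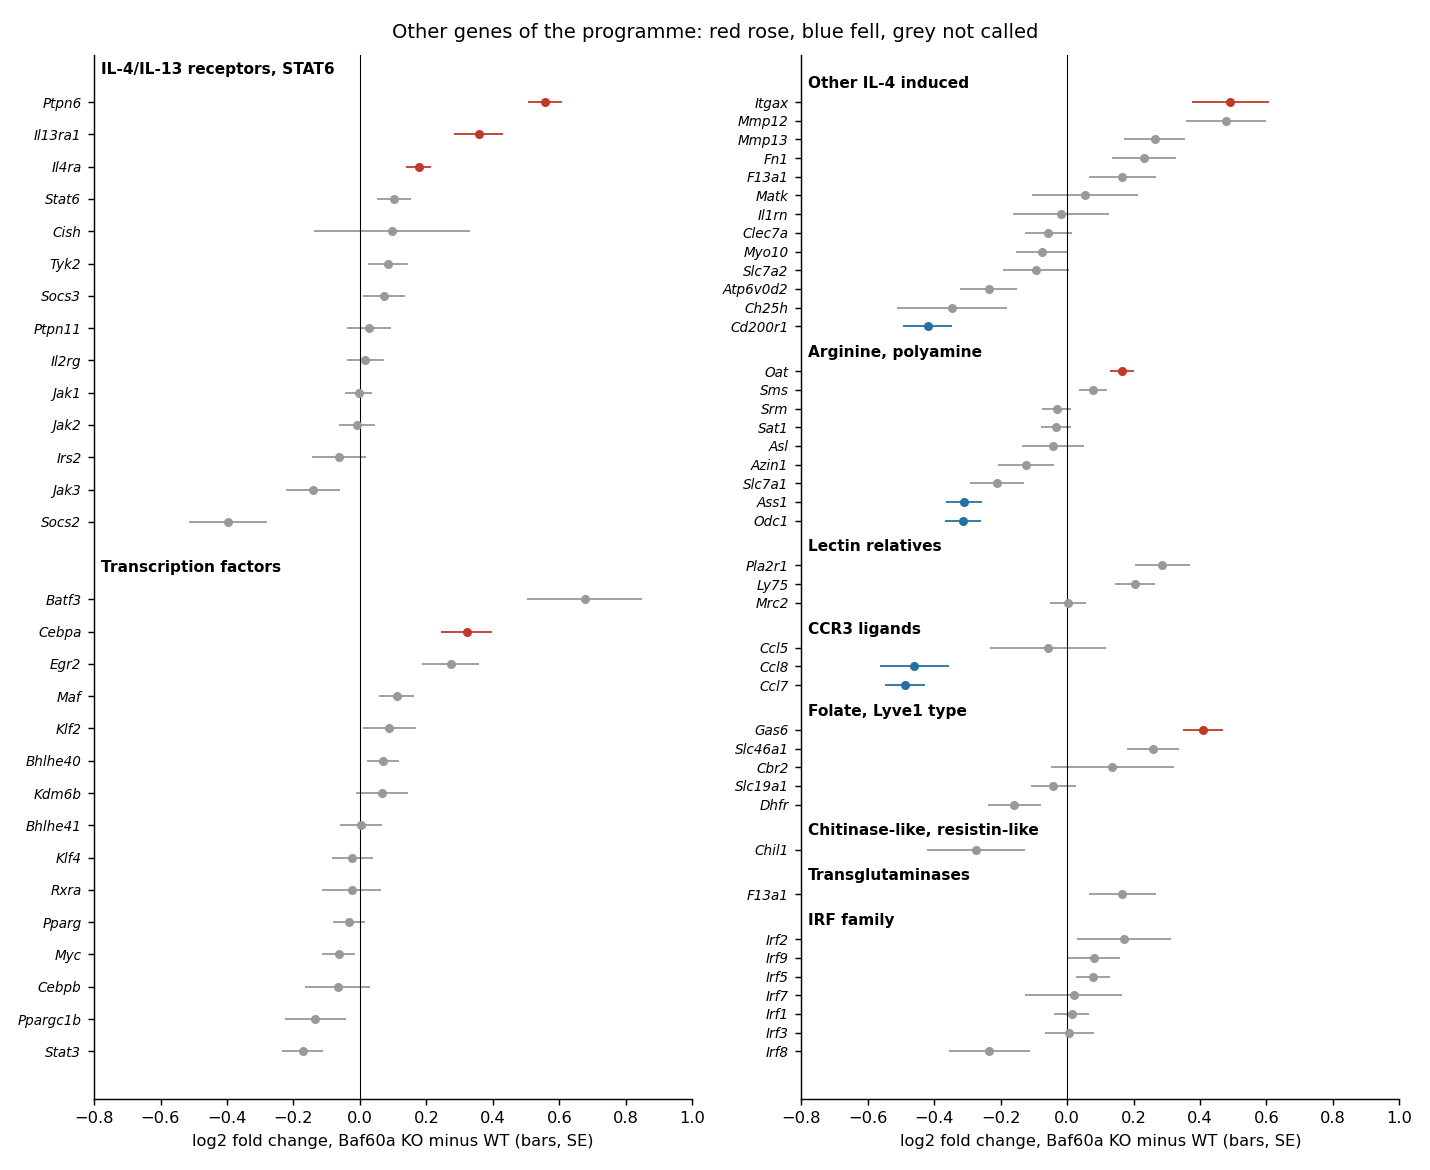
Log2 fold change (Baf60a KO minus WT, limma, bars SE) of tested genes of the 10 lists around the programme, where red genes rose, blue genes fell and grey genes were not called. Ptpn6 at 0.56 and Ccl7 at -0.49 are the largest called changes in each direction, and F13a1 belongs to 2 lists.

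The profile of Clec10a over the 8 libraries was compared with those of 11097 other tested genes with an official symbol and a mean over 2 TPM, by the root mean square difference of log2(TPM + 1) after each gene was centred on its own mean. The 5 closest were F7, coagulation factor VII (0.106), Clec4e, the lectin Mincle (0.126), Siglec1, the sialic acid receptor CD169 (0.134), Mfsd7a (0.145) and Gadd45a, a stress-induced growth arrest gene (0.148), against a median of 0.488 over the genes compared. All 5 fell in Baf60a KO with groups that did not overlap, which such a likeness over both groups brings with it. F7 was at 6.32, 5.73, 5.03 and 5.56 TPM in Baf60a KO, against 14.07, 12, 9.77 and 11.16 TPM in WT. Its ratio of means was 0.482, next to 0.491 for Clec10a. Clec4e was at 94.94, 94.97, 89.51 and 98.92 TPM in Baf60a KO, against 163.14, 160.96, 148.23 and 158.59 TPM in WT, a ratio of 0.600.

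**Figure D5:**
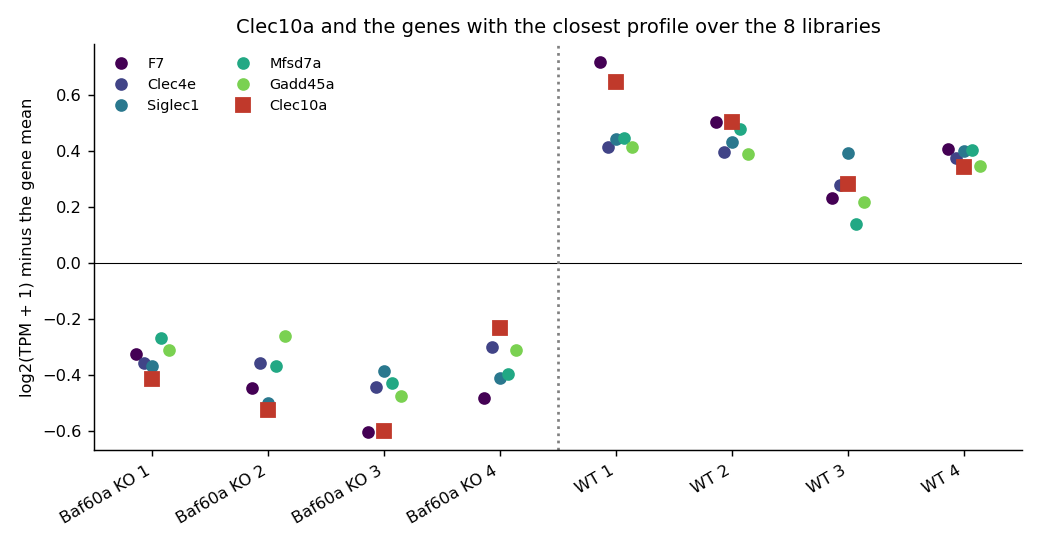
Profile of Clec10a (red squares) and of the 5 genes closest to it (circles) as log2(TPM + 1) minus the gene's own mean, for the 4 Baf60a KO and then the 4 WT libraries. For Clec10a and F7, WT replicate 1 is the highest library and Baf60a KO replicate 3 the lowest.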

How the data were processed

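RNA of macrophages was sequenced in 8 libraries, and the authors deposited 1 table of TPM for 55421 Ensembl identifiers. Salmon 1.2.0, bcl2fastq and the mm10 build are named, per the submitters' processing notes, and the annotation and strand setting have no statement in the sources used here. TPM keeps no depth, so no counting precision can be given. Identifiers were named through GENCODE M21. Genes over 1 TPM in at least 4 libraries were fitted with limma 3.58.1 (R 4.3.3) on log2(TPM + 1), with a mean-variance trend, all 8 libraries and no covariate, and the fit was tested on simulated data. Untested genes and ratios had exact two-sided permutation tests. Sequences were aligned with Biopython 1.88. The 10 genes and all lists were chosen with earlier results of these data known. Named were the 10 genes, Smarcd1, up to 3 called genes per list (with none called, the most abundant), called neighbours, Asgr1 and Asgr2. Also named were the 5 profiles closest to Clec10a and called markers, up to 3 per cell type but all 4 of the stromal list. Alternatives changed the pseudocount, filter, trend, weights, scaling, block and libraries used. 1 gene of the lists is counted in the totals and not reported here.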

Additional observations from a re-analysis of the deposited data

Results flagged for a closer look

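Of 86 groups of 4 libraries examined, 7 held a library far from the other 3, where chance gives about 1 in 20 groups. Mgl2 in Baf60a KO replicate 1 was at 0.11 TPM, with the other 3 at 0.17 to 0.18 TPM. Ccl24 in the same library was listed at 0.0 TPM, with the others at 0.21 to 0.23 TPM. F13a1 there was at 1.57 TPM, with the others at 1.27 to 1.30 TPM. Ccl8 in WT replicate 1 was at 49.54 TPM, with the others at 39.97 to 41.52 TPM, and Gas6 there was at 116.51 TPM, with the others at 104.14 to 105.79 TPM. The ratio of Folr2 to Mrc1 was 2.454 in Baf60a KO replicate 2, with the others at 2.18 to 2.194. The ratio of Mrc1 to Clec10a was 9.144 in WT replicate 4, with the others at 8.34 to 8.401.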

How the results depend on the processing

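Clec10a, Smarcd1, Ptpn6 and Ccl7 kept their direction and call in all 19 alternatives. Against 613 genes higher and 169 lower in Baf60a KO, 292 and 72 were called without a filter and 201 and 171 without WT replicates 3 and 4. Median-of-ratios scaling gave 404 lower, quantile normalization 254 and TPM over protein-coding genes 321. Leaving out 1 library gave 120 (without Baf60a KO replicate 4) to 532 higher and 36 (the same library) to 235 lower. Same-numbered libraries did not deviate together (correlations -0.113 to 0.012) and no sample correlated best with its own number; the replicate block gave 146 higher and 63 lower. Of the genes in the 10 lists, 13 were called, against 7 with the replicate block, 6 without WT replicates 3 and 4 and 3 (without Baf60a KO replicate 3 or 4) to 11 without 1 library. These counts can include genes not among the 13, of which 3 to 9 stayed called without 1 library. The log2 fold changes of the 13 were then 0.775 to 1.2 times those with all libraries. In all, 4 results turned sign, none of them called: Folr2 to -0.0019 without WT replicates 3 and 4, Chil3 to 0.0297 without WT replicate 2 (lowest value without 1 library -0.171), Irf4 to a difference of 0.045 TPM without WT replicate 1 (lowest -0.0917) and Mgl2 to -0.0125 TPM without WT replicate 4 (highest 0.0542). The cause was not tested.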
